A study of Mus with 12 samples.

Results

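The Hox genes of the HoxA, HoxB, HoxC and HoxD clusters were followed through pregnancy in the mouse uterus. Members were the rows of the 2 deposited gene tables that carry a Hoxa, Hoxb, Hoxc or Hoxd gene name and an Ensembl transcript. They comprised 39 genes, of which 11 belong to HoxA, 10 to HoxB, 9 to HoxC and 9 to HoxD. These genes occupied 29 of the 87235 rows of the table for E0.5 and E4.5. In the table for E15.5 and E18.5, 34 of them occupied 27 of 40787 rows. Whole uteri came from untreated pregnant ICR mice, an outbred stock, whose age the series design gives as 8 weeks. The implantation stage of the study has mice at embryonic days E0.5 and E4.5, its labor stage mice at E15.5 and at E18.5, and each of the 4 groups held 3 mice. The comparison within a stage asks which transcripts differ between days with different progesterone action. RNA was measured by sequencing, as FPKM (fragments scaled to transcript length and library size), and as read counts for the implantation stage.

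Hox genes encode homeodomain transcription factors. Within each cluster they are numbered by paralogue group, from group 1 at the 3′ end to group 13 at the 5′ end, and in the embryo the groups with low numbers are used toward the head and those with high numbers toward the tail. Along the Müllerian duct Hoxa9, Hoxa10, Hoxa11 and Hoxa13 mark in turn the future oviduct, uterus, uterus with cervix, and vagina. Hoxa10 and Hoxa11 stay on in the adult uterine stroma, respond to progesterone and estrogen, and are required for implantation in mice.

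Neighbouring Hox genes were often joined into 1 row. At the implantation stage 22 rows held a single Hox gene, and 7 rows merged 17 genes, among them Hoxa9 with Hoxa10, Hoxb3 with Hoxb4, Hoxb5 and Hoxb6, Hoxc4 with Hoxc6, and Hoxd9 with Hoxd10 and Hoxd11. At the labor stage 21 rows held a single gene and 6 merged 13 genes, and Hoxb5, Hoxc4, Hoxc6 and Hoxd9 had rows of their own. Some merged rows also carry a noncoding neighbour: the Hoxa9/Hoxa10 row includes Mir196b, the Hoxb3/Hoxb4/Hoxb5/Hoxb6 row Mir10a, the Hoxd3/Hoxd4 row Mir10b and Gm28230, the Hoxa2/Hoxa3 row Gm28308 and, at the implantation stage, Hoxaas3, and the Hoxd9/Hoxd10/Hoxd11 row Gm28309 and Gm14396. A merged row gives no level for either gene alone. Its FPKM is also spread over the length of all its transcripts, so levels of merged and single rows are not directly comparable. Another 10 and 5 rows with a Hox name but no Ensembl transcript were not members.

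At the implantation stage the libraries held between 58020989 and 70906881 counts, and the depth behind the FPKM of the labor stage is unknown. Markers of smooth muscle and the steroid receptors Esr1 and Pgr were found in every library. The library E4.5 replicate 3 stood apart. Its 6 ovary markers summed to 816 FPKM, against 7.61 to 10.5 FPKM in the other 5 libraries of the stage. Its 4 oviduct markers summed to 86.6 FPKM against 8.06 to 21.9, and its 5 smooth muscle markers to 172 FPKM against 656 to 978. Cyp11a1, the first enzyme of steroid synthesis, was at 378 FPKM in this library and at 0.951 FPKM or less in the others. E0.5 replicate 1 had the highest fat markers, with 225 FPKM over 5 genes against 7.35 to 79.4 elsewhere. The fold changes of the implantation stage are therefore given with and without E4.5 replicate 3. The part of ovary, oviduct and fat RNA in the Hox values was not tested. In bulk tissue, fewer cells of a type and less RNA per cell cannot be told apart.

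**Figure D1:**
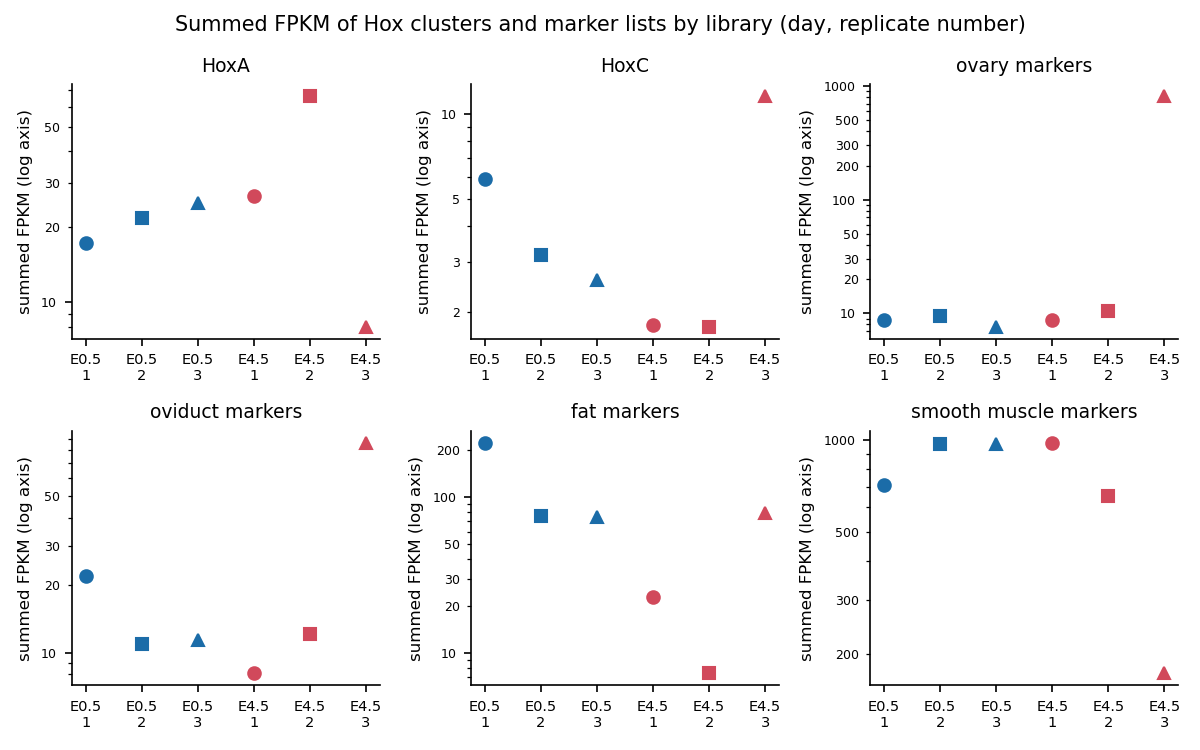
Summed FPKM (log axis) of the HoxA and HoxC rows and of the marker lists for ovary, oviduct, fat and smooth muscle in each library of the implantation stage, with days in colour and replicate numbers as symbols. E4.5 replicate 3 has the lowest HoxA sum (7.98 FPKM) and the highest HoxC sum (11.6 FPKM), together with the highest ovary and oviduct and the lowest smooth muscle markers.

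Between E0.5 and E4.5, Hoxb9 was lower at E0.5 with all libraries, and rows of Hoxa9/Hoxa10 and Hoxd9/Hoxd10/Hoxd11 joined it once E4.5 replicate 3 was left out. The study's criterion asks for a 2-fold change (1 on the log2 scale) and an unadjusted p below 0.05. With all 6 libraries it was met by 1 of 21 tested Hox rows, Hoxb9, where 12.2% of all 59732 tested rows met it (6.37% higher and 5.82% lower at E0.5). None of the 21 passed a Benjamini-Hochberg adjusted p of 0.05 in edgeR's quasi-likelihood test (1.22% of all rows). An unadjusted p below 0.05 was reached by 3 of them (17.0% of all rows), and DESeq2, which gave no p for Hoxa11, Hoxc4/Hoxc6 and Hoxc5/Hoxc10, called 1 by its adjusted p (9.99%). Fits without E4.5 replicate 3 rest on only 2 mice at E4.5. With that library left out, 4 of 21 met the criterion (14.4% of all rows), 3 lower (6.44%) and 1 higher (7.99%) at E0.5. The same 4 passed the adjusted p (6.28%). Hoxa9/Hoxa10, Hoxb9 and Hoxd9/Hoxd10/Hoxd11 were the lower rows and Hoxc4/Hoxc6 the higher one. With E0.5 replicate 1 left out as well, which leaves 2 mice a group, 5 of 20 met the criterion (14.0%) and 3 passed the adjusted p (3.94%). Fold changes are written as E0.5 against E4.5, so a negative value means lower at E0.5.

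Hoxa9 and Hoxa10 share the row at chr6:52223100-52240854 (minus strand, GRCm38), the HoxA row with the highest mean. It was at 6.71, 8.51 and 9.77 FPKM at E0.5 and at 22.2, 26.4 and 1.83 FPKM at E4.5. The E4.5 mice of replicates 1 and 2 lay above all E0.5 mice, and replicate 3 lay below them all. With all libraries the log2 fold change was -1.02 (SE 0.82, adjusted p = 0.564, edgeR). It was -1.55 (SE 0.19, adjusted p = 0.00844) without E4.5 replicate 3, a level 2.93-fold higher at E4.5. Over the alternatives the adjusted p ranged from 0.0081 to 0.885. Hand2, a stromal target of progesterone, was likewise high in E4.5 replicates 1 and 2 and low in replicate 3, at 1.67, 1.78 and 2.75 FPKM at E0.5 and at 22.0, 20.6 and 1.13 FPKM at E4.5. The 5 stroma markers, Hand2 included, together summed to 49.7, 75.2 and 67.4 FPKM at E0.5 and to 100.03, 90.4 and 49.4 FPKM at E4.5. Of the 5, 1 met the criterion (12.2% of all rows), with a median log2 fold change of -0.15. Without E4.5 replicate 3 again 1 did (14.4%), with a median of -0.35. The part of stromal RNA in the Hox values was not tested.

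Hoxd9, Hoxd10 and Hoxd11, the HoxD genes of the same paralogue groups, share the row at chr2:74679533-74697365 (plus strand). Its values were 3.53, 4.53 and 3.35 FPKM at E0.5, against 11.9, 10.9 and 1.34 FPKM at E4.5. As for Hoxa9/Hoxa10, E4.5 replicates 1 and 2 were high and replicate 3 was low. Its log2 fold change was -1.09 (SE 0.71, adjusted p = 0.471, edgeR) with all libraries and -1.60 (SE 0.19, adjusted p = 0.00643) without E4.5 replicate 3. The adjusted p ranged from 0.00616 to 0.756 over the alternatives.

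Hoxb9 is a single gene at chr11:96271457-96276595 (plus strand). It lies inside the span of the merged Hoxb3/Hoxb4/Hoxb5/Hoxb6 row, on the same strand, and how reads over shared bases were assigned is not stated. It was at 0.313, 0.349 and 0.165 FPKM at E0.5 and at 2.41, 1.11 and 1.81 FPKM at E4.5. All E4.5 mice lay above all E0.5 mice, E4.5 replicate 3 included. The counts behind these values were 69, 67 and 37 reads at E0.5 and 528, 234 and 377 reads at E4.5. The group means were 0.276 ± 0.0978 and 1.78 ± 0.651 FPKM (SD, n = 3). That is a log2 fold change of -2.68 (SE 0.46, adjusted p = 0.0531, edgeR), a level 6.43-fold higher at E4.5. It was -2.71 (SE 0.49, adjusted p = 0.0252) without E4.5 replicate 3, and the adjusted p ranged from 5.3e-06 (DESeq2) to 0.186 over the alternatives. Leaving out another library gave -2.94 to -2.36. Decidua markers summed to 14.4, 10.0 and 15.6 FPKM at E0.5 and to 38.9, 35.0 and 119.7 FPKM at E4.5. The part of decidual RNA in the Hoxb9 values was not tested.

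**Figure D2:**
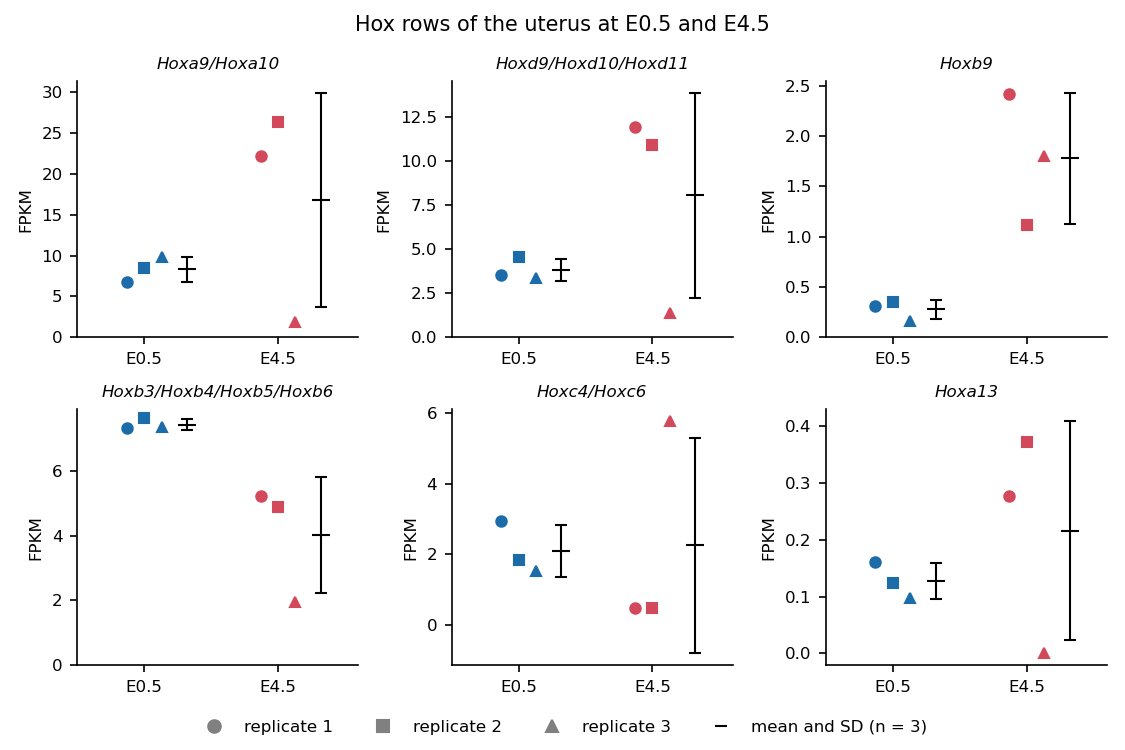
FPKM of 6 Hox rows in each mouse at E0.5 (blue) and E4.5 (red), with symbols for replicate numbers and black bars for the mean and SD of 3 mice. The E4.5 mice of replicates 1 and 2 lie above the E0.5 mice for Hoxa9/Hoxa10, Hoxd9/Hoxd10/Hoxd11 and Hoxa13 and below them for Hoxc4/Hoxc6, replicate 3 lies on the other side in each, and Hoxb9 is higher in all 3.

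Hoxa11, at chr6:52242106-52245810 on the minus strand, overlaps the antisense RNA Hoxa11os on the plus strand over 3159 bases. No source states that reads were counted by strand, so reads from the shared bases may have been given to either row, and the values of both rows are uncertain. Hoxa11 was at 5.41, 9.27 and 10.1 FPKM at E0.5 and at 1.54, 35.7 and 0.930 FPKM at E4.5. The E4.5 mice spanned the E0.5 range from both sides. Its log2 fold change was -0.58 (SE 1.25, adjusted p = 0.846, edgeR). The value was -1.14 (SE 0.97, adjusted p = 0.565) without E4.5 replicate 3, and it turned to 2.72 (adjusted p = 0.0859) without E4.5 replicate 2. Hoxa11 held 68.1%, 67.7% and 73.9% of the counts of the pair at E0.5, but 4.31%, 54.6% and 33.7% at E4.5.

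The counts of Hoxa11 and Hoxa11os together were 1804, 2696 and 3154 at E0.5 and 8101, 14184 and 597 at E4.5. Scaled to library size (CPM), the pair was at 25.7, 46.5 and 44.5 at E0.5 and at 118, 212 and 9.08 at E4.5. E4.5 replicates 1 and 2 were high and replicate 3 was low, as for Hoxa9/Hoxa10. The summed pair had a log2 fold change of -1.55 (SE 0.93, adjusted p = 0.430, edgeR) with all libraries. It was -2.10 (SE 0.32, adjusted p = 0.0147) without E4.5 replicate 3. Summing the pair was an alternative chosen after the values had been seen. Hoxa11os alone met the criterion, at -2.66 on the log2 scale (adjusted p = 0.226, edgeR), and without E4.5 replicate 3 with -3.20 (adjusted p = 0.0022).

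**Figure D3:**
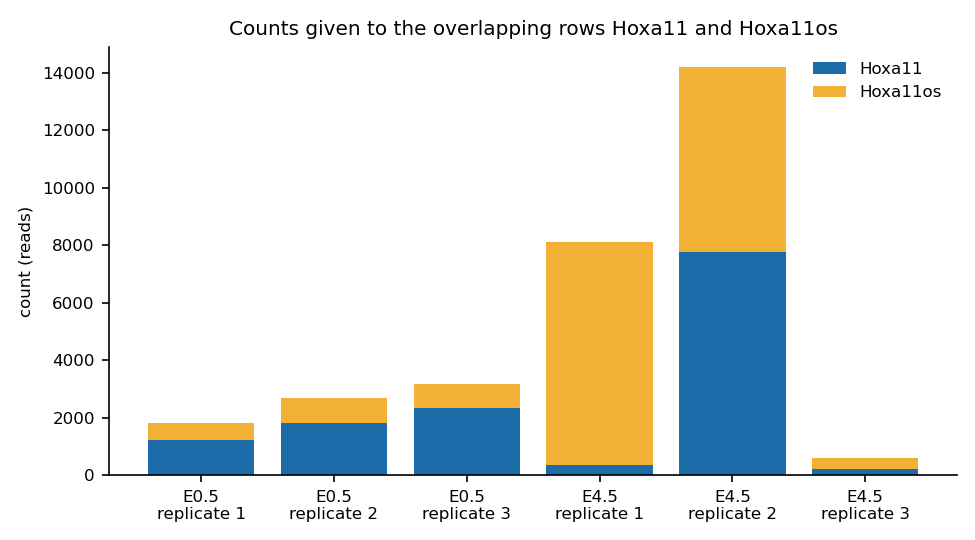
Counts given to Hoxa11 (blue) and to the overlapping antisense row Hoxa11os (yellow) in each library of the implantation stage, stacked from 0. The sum is 1804 to 3154 at E0.5, 8101 and 14184 in E4.5 replicates 1 and 2, and 597 in E4.5 replicate 3, while the share of Hoxa11 moves from 4.31% to 54.6% between the first 2 of these E4.5 mice.

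Hoxa13, which marks the caudal end of the tract, was low. It was at 0.160, 0.123 and 0.0971 FPKM at E0.5 and at 0.277, 0.372 and 0 FPKM at E4.5, which rests on 76 reads at most. E4.5 replicates 1 and 2 lay above E0.5, and replicate 3 had no read, where a count of 0 allows up to 3. Its change on the log2 scale was -0.76 (SE 1.34, adjusted p = 0.809, edgeR), or -1.35 (SE 0.57, adjusted p = 0.239) without E4.5 replicate 3. Markers of the stratified epithelium of cervix and vagina summed to 14.1, 0.237 and 14.3 FPKM at E0.5 and to 1.75, 5.28 and 0.575 FPKM at E4.5.

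Of the 5 tested HoxC rows, 4 had a log2 fold change above 1 without E4.5 replicate 3 and 1 of them, Hoxc4/Hoxc6, passed the test, while Hoxc11 was at -1.71. With E0.5 replicate 1 left out as well, Hoxc4/Hoxc6 and Hoxc9 (1.13) stayed above 1, Hoxc8 was at 0.78 and Hoxc5/Hoxc10 at 0.34. Hoxc8 and Hoxc9 lie inside the span of the merged Hoxc5/Hoxc10 row, and Hoxc4/Hoxc6 overlaps it, all on the same strand. These 4 rows may therefore share reads and are not separate evidence. Hoxc4/Hoxc6, at chr15:102998129-103037659 (plus strand), was the HoxC row with the highest mean. It was at 2.94, 1.84 and 1.52 FPKM at E0.5 and at 0.494, 0.496 and 5.77 FPKM at E4.5. E4.5 replicates 1 and 2 lay below all E0.5 mice and replicate 3 lay above them. With all libraries it changed by -0.06 on the log2 scale (SE 0.94, adjusted p = 0.983, edgeR), and by 2.06 (SE 0.30, adjusted p = 0.0128) without E4.5 replicate 3. Leaving out E0.5 replicate 1 as well gave 1.76 (SE 0.20, adjusted p = 0.0165). The adjusted p ranged from 0.0124 to 0.999 over the alternatives. Fat markers summed to 225, 75.3 and 75.1 FPKM at E0.5 and to 22.7, 7.35 and 79.4 FPKM at E4.5. Oviduct markers summed to 21.9, 10.9 and 11.3 FPKM at E0.5 and to 8.06, 12.05 and 86.6 FPKM at E4.5. The HoxC sum and both marker sums were highest in E0.5 replicate 1 among the E0.5 mice and in replicate 3 among the E4.5 mice. Their part in the HoxC values was not tested.

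The HoxB rows of groups 3 to 8 had log2 fold changes above 0, and none met the criterion with all libraries or without E4.5 replicate 3. Hoxb3/Hoxb4/Hoxb5/Hoxb6, at chr11:96245381-96346507 (plus strand), was the HoxB row with the highest mean. Its values were 7.32, 7.62 and 7.36 FPKM at E0.5, against 5.24, 4.87 and 1.95 FPKM at E4.5, so the groups did not overlap. Its log2 fold change was 0.88 (SE 0.38, adjusted p = 0.301, edgeR), and 0.54 (SE 0.14, adjusted p = 0.0784) without E4.5 replicate 3. Hoxb7 had 0.90 (adjusted p = 0.260), also with no overlap, and 0.62 (adjusted p = 0.204) without that library. Without E4.5 replicate 1 both rows met the criterion, at 1.17 and 1.07. Hoxb7 and Hoxb8 lie inside the span of the merged row on the same strand, so reads may be shared between these rows. The 5 epithelial markers Epcam, Cdh1, Krt8, Krt18 and Krt19 summed to 241, 215 and 255 FPKM at E0.5 and to 99.5, 149.7 and 72.2 FPKM at E4.5, and the part of epithelial RNA in these values was not tested. The cluster held both Hoxb9, higher at E4.5, and neighbours whose fold change lay above 0.

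**Figure D4:**
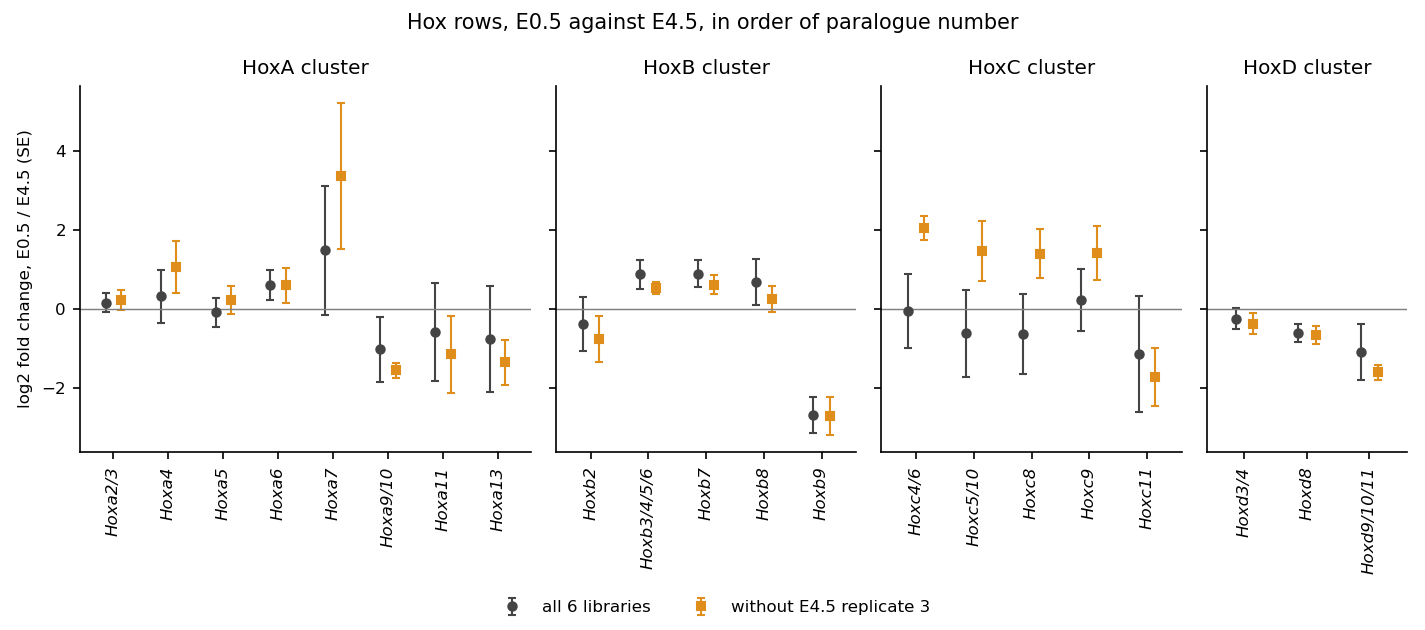
Log2 fold change of each tested Hox row at E0.5 against E4.5, with its standard error, by cluster and in order of paralogue number, with all libraries (grey) and without E4.5 replicate 3 (orange). Hoxb9 lies near -2.7 in both fits, the rows from group 9 up in HoxA and HoxD lie below 0, and 4 HoxC rows lie above 1 in the fit without E4.5 replicate 3 but not with all libraries.

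By position, 6 of 7 tested rows of groups 9 to 13 had a negative log2 fold change, with a median of -1.02 where the median of all tested rows was -0.01. Leaving out E4.5 replicate 3 gave again 6 of 7, with a median of -1.55 against 0.06 over all rows, and the exception was Hoxc9. The 7 rows of groups 5 to 8 had a median of 0.62, and 4 were positive. Leaving out that library, the median was 0.60 and 6 were positive, and none met the criterion in either fit. The 4 rows of groups 1 to 4 had a median of -0.04, or -0.07 without that library, and none met the criterion in either fit. The other 3 tested rows, Hoxb3/Hoxb4/Hoxb5/Hoxb6, Hoxc4/Hoxc6 and Hoxc5/Hoxc10, merge genes of several position groups and were counted in none of them. Groups did not overlap in 5 of 21 Hox rows, against 25.2% of all rows, and in 12 of 21 without E4.5 replicate 3, against 40.3%.

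Summed over rows, groups 9 to 13 had 16.6, 23.4 and 23.9 FPKM at E0.5, against 39.5, 75.3 and 6.40 FPKM at E4.5. The sums for groups 5 to 8 were 18.45, 15.6 and 17.1 FPKM at E0.5, against 15.8, 13.4 and 13.04 FPKM at E4.5. Groups 9 to 13 thus made up 31.9% to 43.5% of the Hox FPKM at E0.5. At E4.5 they made up 57.4% and 75.4% in replicates 1 and 2 and 18.0% in replicate 3. The rows that merge position groups, which hold Hoxc10 of group 10 among others, made up 5.72% to 30.2% over the 6 libraries. Since merged and single rows are scaled to different lengths, these shares describe the rows of this table and not the genes.

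Some rows lay under the mean of 0.1 FPKM needed for the test. Among them, Hoxb13, Hoxc12, Hoxc13 and Hoxd1 had no read in any library. Hoxb1, Hoxd12 and Hoxd13 did not exceed 0.238 FPKM in any library. A row near this limit can pass it through the day on which it is high, so counts over the tested rows do not describe all members.

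No Hox row met the criterion between E15.5 and E18.5. Of 24 tested rows 0 did, where 6.05% of all 30928 tested rows did, and also 0 without E15.5 replicate 1 (5.02%). None passed the adjusted p in limma on log2(FPKM + 0.1), 2 reached an unadjusted p below 0.05 (12.2% of all rows), and 0 passed the adjusted p in limma without a trend. Only 8 rows of the whole table, or 0.0259%, passed the adjusted p. A negative value here means lower at E18.5, and the pseudocount understates the change of low rows.

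Hoxa9/Hoxa10, the row with the lowest unadjusted p, was at 11.5, 8.54 and 8.94 FPKM at E15.5 and at 4.06, 5.72 and 7.34 FPKM at E18.5. All E18.5 mice lay below all E15.5 mice. The log2 difference was -0.78 (SE 0.24, adjusted p = 0.270, limma), a level 1.71-fold lower on this scale. Leaving out E15.5 replicate 1 gave -0.65 (SE 0.25). That library held 1342 FPKM of the decidual hormone gene Prl8a2 against 40.2 to 86.0 FPKM elsewhere, and its part in the difference was not tested.

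Hoxa11, the HoxA row with the highest mean at this stage, had overlapping groups. Its values were 13.7, 8.89 and 6.73 FPKM at E15.5 and 9.45, 8.34 and 9.89 FPKM at E18.5. The log2 difference was -0.03 (SE 0.25, adjusted p = 0.978, limma), and 0.25 (SE 0.15) without E15.5 replicate 1. Hoxa11os, the antisense row, had a log2 difference of -0.41 (adjusted p = 0.727). Hoxa13 was at 0.0409, 0.0987 and 0 FPKM at E15.5 and at 0.0821, 0.298 and 0.204 FPKM at E18.5. Its log2 difference was 0.99 (SE 0.47, adjusted p = 0.451), at levels where the groups overlapped.

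All 6 tested HoxB rows had a log2 difference above 0, from 0.07 for Hoxb2 to 0.80 for Hoxb5, and none met the criterion. Their median was 0.67 where that of all tested rows was 0.02, and 0.40 without E15.5 replicate 1. Hoxb7, the highest of them, was at 3.37, 3.99 and 5.39 FPKM at E15.5 and at 8.08, 6.97 and 5.39 FPKM at E18.5. The highest E15.5 mouse and the lowest E18.5 mouse were nearly level. The log2 difference was 0.68 (SE 0.22, adjusted p = 0.305, limma). Over all HoxB rows the sum was 6.58, 8.77 and 11.8 FPKM at E15.5 and 17.0, 13.5 and 11.6 FPKM at E18.5. The epithelial markers summed to 197, 295 and 411 FPKM at E15.5 and to 819, 597 and 593 FPKM at E18.5. E15.5 replicate 1 had the lowest and E18.5 replicate 1 the highest of both sums, and the part of epithelial RNA in the HoxB values was not tested.

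In the other clusters the highest rows were Hoxc6 and Hoxd8. Hoxc6 was at 0.394, 0.518 and 0.372 FPKM at E15.5 and at 1.03, 0.364 and 0.944 FPKM at E18.5, with overlapping groups and a log2 difference of 0.64 (SE 0.39, adjusted p = 0.554, limma). Hoxd8 was at 4.92, 3.56 and 3.77 FPKM at E15.5 and at 4.69, 4.18 and 3.67 FPKM at E18.5. Its log2 difference was 0.04 (SE 0.17, adjusted p = 0.945), less than the spread between mice. HoxD rows ran from -0.02 to 0.34 in all. Groups did not overlap in 6 of 24 Hox rows, against 19.9% of all rows. Hoxc9, Hoxd12 and Hoxd13 lay under the limit for the test.

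**Figure D5:**
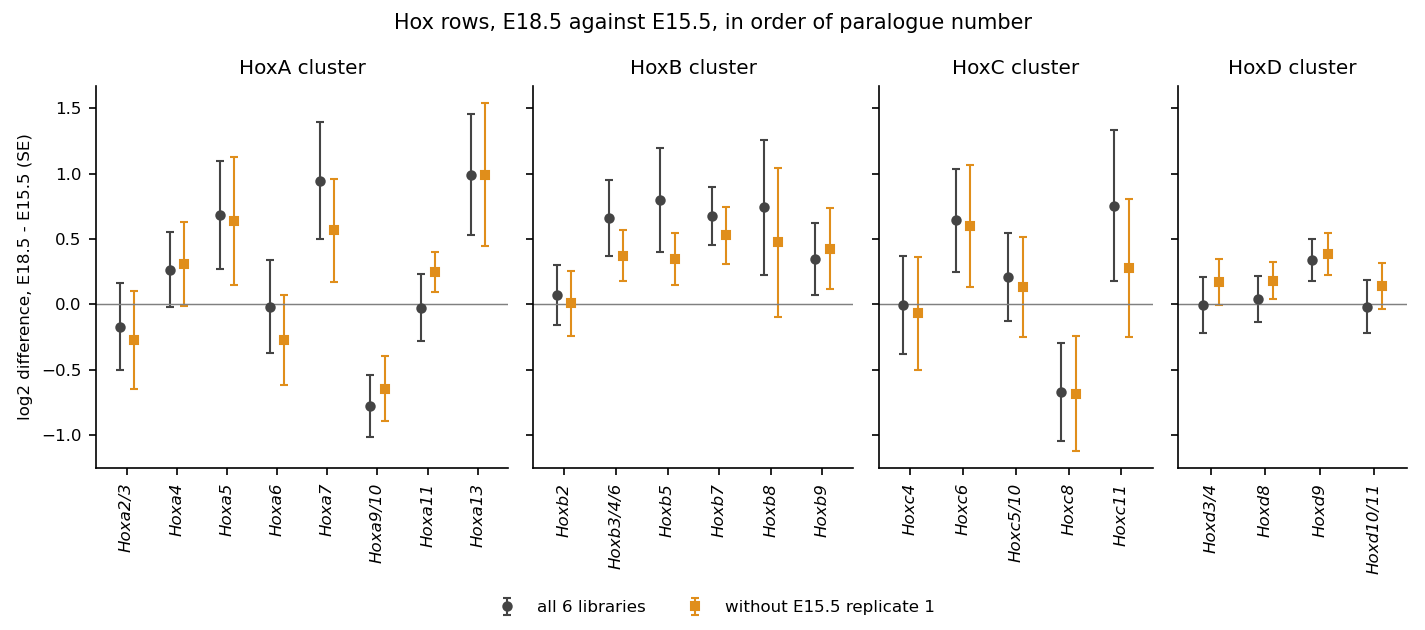
Log2 difference of tested Hox rows between E18.5 and E15.5, with standard errors, by cluster and in order of paralogue number, with all libraries (grey) and without E15.5 replicate 1 (orange). No plotted row reaches a difference of 1 with all libraries, Hoxa9/Hoxa10 is the lowest at -0.78, and the HoxB rows lie above 0.

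Whether the 2 stages differed in their change was tested on 20777 row pairs, 17 of them Hox rows. Rows were paired one to one by shared Ensembl transcripts, but paired rows need not hold the same set of transcripts. The difference passed the adjusted p for 1 of the 17, where 2.69% of all pairs did. That row was Hoxb9. It held 2 Ensembl transcripts for E0.5 and E4.5 but 1 for E15.5 and E18.5, and the effect of this on the difference was not tested. Its log2 difference on the log2(FPKM + 0.1) scale was -2.30 for E0.5 against E4.5 and 0.35 for E18.5 against E15.5, and the difference between them was -2.64 (SE 0.46, adjusted p = 0.0156, limma). It was -2.60 (adjusted p = 0.0155) without E4.5 replicate 3, where 5.92% of all pairs passed. The call was lost without E15.5 replicate 2, with an adjusted p of 0.0503, and with the replicate number as a block, with 0.0734. Late in pregnancy Hoxb9 was at 0.456, 0.359 and 0.385 FPKM at E15.5 and at 0.624, 0.391 and 0.615 FPKM at E18.5. For Hoxa9/Hoxa10 the difference between stages was 0.45 (SE 1.08, adjusted p = 0.863) with all libraries and -0.77 (SE 0.34, adjusted p = 0.223) without E4.5 replicate 3. The fold changes of Hoxd9, Hoxd10 and Hoxd11 were not tested in this way, since their rows are split differently in the tables.

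Hox proteins bind DNA with TALE homeodomain cofactors of the Pbx, Meis and Pknox families. Of 10 tested cofactor rows at the implantation stage, 1 was higher and 1 lower at E0.5 by the criterion (12.2% of all rows in either direction), and none passed the adjusted p (1.22%). The median log2 fold change was 0.13, against -0.01 over all rows. Without E4.5 replicate 3 the criterion was met by 1 (14.4%), which also passed the adjusted p (6.28%), and the median was 0.02 against 0.06. Meis2 was at 9.19, 10.4 and 10.7 FPKM at E0.5 and at 7.12, 4.88 and 2.40 FPKM at E4.5, or on the log2 scale 1.06 (adjusted p = 0.252, edgeR). It was 0.73 without E4.5 replicate 3. Pknox2 was at 1.11, 1.33 and 1.495 FPKM at E0.5 and at 3.45, 4.72 and 2.004 FPKM at E4.5, or on the log2 scale -1.36 (adjusted p = 0.108, edgeR). Leaving out E4.5 replicate 3 gave -1.64 (adjusted p = 0.0070). None of 9 cofactor rows met the criterion late in pregnancy (6.05% of all rows).

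Of 8 tested noncoding rows of the Hox clusters, Hoxa11os was lower and Hoxb5os higher at E0.5 by the criterion (12.2% of all rows in either direction). One of the 8 is the merged Hoxa2/Hoxa3 row, which carries Hoxaas3. Hoxb5os, antisense to Hoxb5, was at 7.64, 7.22 and 4.82 FPKM at E0.5 and at 0.656, 4.09 and 1.33 FPKM at E4.5, or on the log2 scale 1.73 (adjusted p = 0.233, edgeR). It did not meet the criterion without E4.5 replicate 3, where its log2 fold change was 1.48 (adjusted p = 0.260). Since counting by strand is not stated, Hoxb5os may share reads with the merged row that holds Hoxb5. Late in pregnancy 1 of 8 met the criterion, higher at E18.5 (3.11% of all rows). This was Hoxaas2, at 0.288 FPKM or less in every library, with a log2 difference of 1.34 (adjusted p = 0.244, limma).

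Other homeobox genes of the uterus were tested in 8 rows at the implantation stage. Of these, Msx1, Msx2 and Dlx5 were higher and Prrx2 lower at E0.5 by the criterion, where 12.2% of all rows met it in either direction, and the list had a median log2 fold change of 1.61. Without E4.5 replicate 3, Dlx6 was higher as well (14.4% of all rows in either direction), 3 rows passed the adjusted p (6.28%), and the median was 1.04 against 0.06 over all rows. Msx1, which is needed for uterine receptivity, was at 57.2, 32.5 and 22.7 FPKM at E0.5 and at 7.13, 10.7 and 1.83 FPKM at E4.5, or on the log2 scale 2.51 (adjusted p = 0.1301, edgeR). It was 2.06 (adjusted p = 0.0313) without E4.5 replicate 3. Msx2, its paralogue, had 2.77 on the log2 scale (adjusted p = 0.0245), the only row of the list past the adjusted p with all libraries, and 2.56 (adjusted p = 0.00554) without that library. Dlx5 had 2.28 (adjusted p = 0.123), and 1.83 (adjusted p = 0.00386) without it. Prrx2 had -2.37 (adjusted p = 0.0838), and -1.96 (adjusted p = 0.0694) without it. Between E15.5 and E18.5 Dlx5 (log2 difference 1.25, adjusted p = 0.403, limma) and Dlx6 (1.20, adjusted p = 0.362) met the criterion among 6 tested (6.05% of all rows), and without E15.5 replicate 1 neither did. The sums of the epithelial markers given above were also higher at E0.5 than at E4.5 and higher at E18.5 than at E15.5, with no overlap between days, and the part of epithelial RNA in the values of this list was not tested.

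Among 10 tested genes of Müllerian duct patterning, Pax2 was higher and Amhr2 lower at E0.5 by the criterion with all libraries (12.2% of all rows in either direction). Pax2, a paired-box factor of the duct epithelium, had 1.67 on the log2 scale (adjusted p = 0.156, edgeR), and 1.27 (adjusted p = 0.0265) without E4.5 replicate 3. Amhr2, the receptor for anti-Müllerian hormone, was at 23.9 FPKM in E4.5 replicate 3 and at 0.110 to 0.201 FPKM in the other 5 libraries. Its log2 fold change was -5.46 (adjusted p = 0.258, edgeR), and 0.56 (adjusted p = 0.748) without that library, so the call rests on the library with the ovary markers. In the fit without it, 1 gene was higher and 1, not reported here, was lower by the criterion (14.4% of all rows). In each direction 1 passed the adjusted p (6.28%). Late in pregnancy 1 of 10 tested met the criterion, higher at E18.5 (3.11% of all rows). This was Wnt4, a ligand also listed among the decidua markers, at 2.52, 1.75 and 1.75 FPKM at E18.5 against 1.01, 0.686 and 0.683 FPKM at E15.5, a log2 difference of 1.24 (adjusted p = 0.149, limma).

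Of 6 genes reported elsewhere as targets of Hoxa10 or Hoxa11 in the uterus, 1 met the criterion (12.2% of all rows). Igfbp1, a secreted binder of insulin-like growth factors made by decidual cells, was at 0 FPKM in all E0.5 libraries and at 0.581, 0.558 and 0 FPKM at E4.5. Its adjusted p was 0.225 with all libraries and 0.0255 without E4.5 replicate 3 (edgeR). It passed the limit of 0.1 FPKM through E4.5 alone, so the filter fixed its direction. Leaving out E4.5 replicate 3 also removed the E4.5 mouse at 0 FPKM, and no conclusion is drawn from these p-values. The other 5 genes did not meet the criterion, and none of the 5 tested late in pregnancy did (6.05% of all rows).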

How the data were processed

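Total RNA of 12 whole uteri was sequenced as paired-end libraries. The labels describe poly(A) selection and the study's methods rRNA depletion, so the library type is uncertain. Per the study's methods, the authors used Cutadapt for trimming, Bowtie2 and TopHat2 for alignment, and estimated FPKM with StringTie and Ballgown. The submitters' processing notes name Bowtie 0.12.2, HISAT2 2.0, StringTie 1.3.0, mm8 and mm10. The annotation release is not given in the sources used here. The authors deposited 1 table of FPKM per stage, and the implantation table also holds whole-number counts. How reads were assigned to genes is not stated. Its value of 0.0001 in place of 0 was set to 0. Positions overlap RefSeq GRCm38 entries for 38 of 39 Hox genes. Rows without a gene name hold 1.02% to 1.86% of the counts.

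The counts were tested with edgeR 4.0.16 (TMM, quasi-likelihood F-test) in R 4.3.3. For the labor stage, which has no counts, limma 3.58.1 with a mean-variance trend was run on log2(FPKM + 0.1). The stage difference used limma on log2(FPKM + 0.1) over 12 libraries. Rows entered with a mean of at least 0.1 FPKM, and adjusted p-values use Benjamini-Hochberg over all tested rows. Both tests were tested on simulated data. The tables differ in their rows, so levels were not compared across them. Values in every library are given for rows that meet the study's criterion, for Hoxa9, Hoxa10, Hoxa11 and Hoxa13, and for the highest row of each cluster in each table. Apart from markers and items not reported here, list genes were named where they met the criterion. Some items are not reported here. The members and lists were chosen with earlier results of these data known. Alternatives were other filters, scalings, pseudocounts and tools (DESeq2 1.42.0), blocking on the replicate number, and leaving out each library. Intervals for counts of 0 cover counting error only. The p-values measure the spread between 3 mice a group, or between fewer in a group that had a library left out.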

Additional observations from a re-analysis of the deposited data

Results flagged for a closer look

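Among the Hox row pairs tested, Hoxb9 was the 1 whose change between days differed between the stages by a test of the difference itself. Of all pairs 2.69% passed. The merged rows Hoxb3/Hoxb4/Hoxb5/Hoxb6, Hoxc4/Hoxc6 and Hoxd9/Hoxd10/Hoxd11 were not among the tested pairs. Hoxb9 was higher at E4.5 than at E0.5 in all mice, at 1.11 to 2.41 FPKM against 0.165 to 0.349 FPKM. At the labor stage the 6 mice lay between 0.359 and 0.624 FPKM. The adjusted p of the difference was 0.0156 in limma over 20777 row pairs, and it ranged from 0.0122 to 0.0734 over the alternatives. Both stages come from separate tables, so the test compared fold changes and not levels. Leaving out single libraries ended the call in 1 case, without E15.5 replicate 2.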

How the results depend on the processing

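At the implantation stage the count of Hox rows that met the study's criterion was 1 and ranged from 1 to 4 when a library was left out. It was 2 without E0.5 replicate 2 (Hoxb7 and Hoxb9), 3 without E4.5 replicate 1 (Hoxb3/Hoxb4/Hoxb5/Hoxb6, Hoxb7 and Hoxb9), 3 without E4.5 replicate 2 (Hoxa11, Hoxb7 and Hoxb9), and 4 without E4.5 replicate 3. Under alternatives added after the data were seen it was 5 without E4.5 replicate 3 and E0.5 replicate 1, and 5 with Hoxa11 and Hoxa11os summed without E4.5 replicate 3. The count past the adjusted p was 0, and ranged from 0 to 4 when a library was left out. It was 1 with DESeq2, with a mean of at least 1 FPKM, with no filter and with named rows only, where the row was Hoxb9 each time. It was 3 without E4.5 replicate 3 and E0.5 replicate 1, and 5 with the summed pair without E4.5 replicate 3. Hoxb9 kept its direction and met the criterion in all 18 alternatives, from -2.94 to -1.10.

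Hoxa11 turned positive at the implantation stage with limma on log2(FPKM + 0.1) at 1.04 and on log2(FPKM + 1) at 0.67, and ranged from -1.14 to 2.72 when a library was left out. Hoxc4/Hoxc6 turned positive with 75th percentile scaling at 0.0615, with limma at 0.73 and 0.30, and with the summed Hoxa11 pair without E4.5 replicate 3 at 2.06, and ranged from -0.54 to 2.06 when a library was left out. It was 1.76 without E4.5 replicate 3 and E0.5 replicate 1.

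At the labor stage the count by the criterion was 0 and ranged from 0 to 3. It was 3 without E15.5 replicate 3 (Hoxa7, Hoxb5 and Hoxb8), 1 without E18.5 replicate 1 (Hoxa13) and 1 without E18.5 replicate 2 (Hoxc6). Yolk sac markers summed to 1.44, 98.9 and 759 FPKM at E15.5 and to 172, 516 and 91.5 FPKM at E18.5. The part of yolk sac RNA in these counts was not tested. No Hox row passed the adjusted p in any of 15 alternatives. Hoxa11 ranged from -0.26 to 0.25 when a library was left out. Hoxd8 was -0.0215 with 75th percentile scaling and -0.0167 with quantile normalization, and ranged from -0.0478 to 0.18 when a library was left out. For the stage difference the count was 1. It was 0 with a mean of at least 1 FPKM in both tables, where Hoxb9 was not tested, and ranged from 0 (without E15.5 replicate 2) to 2 (without E4.5 replicate 2, with Hoxa11) when a library was left out. The difference for Hoxa9/Hoxa10 ranged from -0.77 to 1.12.

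No source calls the replicate numbers a pairing. Same-numbered libraries had correlations of deviations from -0.06 to 0.02, and libraries with different numbers from -0.07 to 0.09. With 3 mice a group, such correlations cannot tell whether the mice were paired. With the replicate block the criterion gave 2 Hox rows at the implantation stage (Hoxb3/Hoxb4/Hoxb5/Hoxb6 and Hoxb9), the stage difference gave 0, and log2 fold changes turned to 1.26 for Hoxa11, 0.16 for Hoxa13 and 1.04 for Hoxc4/Hoxc6. For the changes named here the cause was not tested.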

Other observations

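Of 24 tested genes of the trithorax and polycomb groups, which maintain active and silent Hox genes, 0 met the study's criterion at either stage, where 12.2% of all rows did for E0.5 against E4.5 and 6.05% for E18.5 against E15.5. Their median log2 fold change was -0.14 for E0.5 against E4.5 and 0.23 for E18.5 against E15.5, where the medians of all tested rows were -0.01 and 0.02. Without E4.5 replicate 3 again 0 met it (14.4% of all rows), with a median of -0.13 against 0.06.

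Retinoic acid receptors and Cdx factors act upstream of Hox genes in the embryo. None of the 5 tested met the criterion at the implantation stage with all libraries (12.2% of all rows) or without E4.5 replicate 3 (14.4%). Among those tested late in pregnancy 1 of 6 did (6.05% of all rows). Cdx2, a homeobox factor of intestine and trophoblast, was at 0.0298, 0.0462 and 0.119 FPKM at E15.5 and at 0.487, 0.435 and 0.789 FPKM at E18.5, a log2 difference of 2.02 (adjusted p = 0.1401, limma), and 1.87 without E15.5 replicate 1. It was at 0 FPKM in all libraries of the implantation stage. The 4 trophoblast markers in this table summed to 33.9, 4.09 and 3.597 FPKM at E15.5 and to 56.6, 73.1 and 41.6 FPKM at E18.5. Tpbpa among them was higher in all E18.5 mice than in all E15.5 mice, whereas Prl2c2 was highest in E15.5 replicate 1, at 22.5 FPKM, the library where Cdx2 was lowest. The part of trophoblast RNA in the Cdx2 values was not tested.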
